A study of Mus musculus with 7 samples.

Results

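The genes described here are the 10 that build and load major histocompatibility complex (MHC) class II molecules in the mouse: H2-Aa, H2-Ab1, H2-Eb1, Cd74, H2-DMa, H2-DMb1, H2-DMb2, H2-Oa, H2-Ob and Ciita. They were taken by symbol from the 55335 genes of the deposited tables, and all 10 passed the filter on low counts. RNA had been measured in group 2 innate lymphoid cells (ILC2s), tissue-resident lymphocytes that carry no antigen receptor, sorted from mouse hearts as CD45+, lineage-negative and ST2+ (ST2 is the interleukin 33 receptor). The naive group held 3 libraries of hearts that had not been transplanted, and the allograft group held 4 libraries of BALB/c hearts taken 7 days after transplantation into C57BL/6 mice, a model of acute rejection. Each library pooled the cells of 4 to 7 hearts, so that the libraries, and not single animals, are the replicates. The labels mark every sample with the same 7 days and give no genotype, sex or age, no strain for the naive hearts, and no word on whether the cells of an allograft came from the donor or the recipient. The lineage antibodies are not listed either. The stated question was how graft-infiltrating ILC2s differ from those of the naive heart.

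MHC class II molecules are pairs of an alpha and a beta chain that display peptides from endosomes to CD4+ T cells. The invariant chain, encoded by Cd74, fills the groove of a new molecule and guides it to the endosome, where proteases cut it down; the peptide editor H2-DM then exchanges the last fragment for a peptide, and H2-DO holds H2-DM back. The coactivator CIITA switches the whole group on through DNA-bound factors at a shared promoter module. Dendritic cells, B cells and macrophages are the professional class II presenters, interferon gamma induces CIITA in many other cells, and class II on ILC2s has been described in mice.

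Total counts ranged from 29107326 to 53044907 per library. Levels are given as CPM, the count scaled to a common library total, and a gene at 0 counts could have had up to 3, which is 0.0566 to 0.103 CPM depending on the library. Naive replicate 2 stood apart from the other libraries. The summed CPM of 11 ILC2 markers was 177 there, against 5702 and 7576 in naive replicates 1 and 3 and 6696 to 7263 in the allografts. Mitochondrial transcripts made up 26.5% of its counts and 2.04% to 3.11% of those of the other 6. The tests of the 10 genes were therefore run with this library and without it. In sorted pools, fewer cells of a type and less RNA per cell cannot be told apart.

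Class II transcripts were higher in the allografts. For 8 of the 10 genes every allograft library lay above every naive library, which held for 12.5% of the 17015 genes tested; H2-Oa and Ciita were the exceptions. The median log2 fold change of the 10 genes was 2.16, against -0.01 over all genes tested. With all 7 libraries, none of the 10 passed an adjusted p of 0.05 in edgeR's quasi-likelihood test, where 0.0353% of all genes were called, 0.0294% as higher, while 5 of the 10 had an unadjusted p under 0.05, against 6.41% of all genes on the higher side. Without naive replicate 2, 6 of the 10 were called higher (H2-Aa, H2-Ab1, H2-Eb1, Cd74, H2-DMa and H2-Ob), against 3.00% of the 18037 genes then tested. Of these, H2-Ob had 0 counts in the naive libraries left and could only come out higher. The median of the 10 was then 3.38, against 0.23 over all genes. The same 8 genes were without overlap then, against 21.0% of all genes. DESeq2 on all 7 libraries called 1 of the 10 higher, H2-DMa, against 3.45% of its genes. On log2(FPKM + 1) limma called 1 (H2-DMa), against 0.429% of genes, and on log2(FPKM + 0.1) it called 3 (Cd74, H2-DMa and H2-Ob), against 1.15%.

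**Figure D1:**
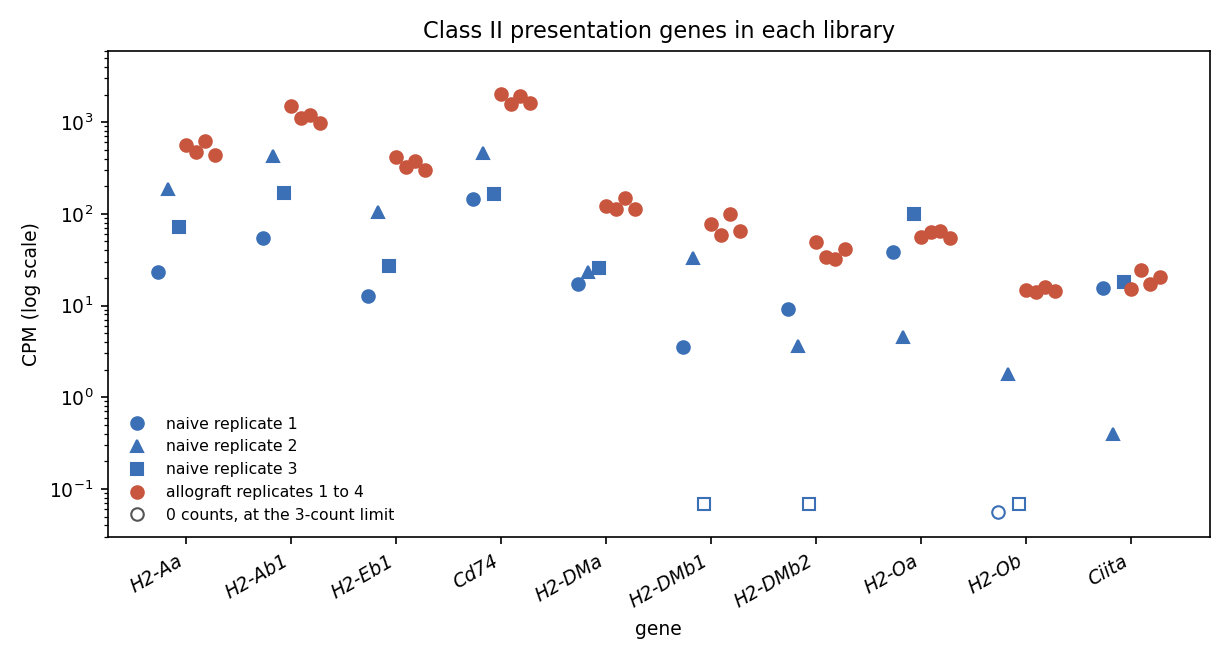
CPM on a log axis of the 10 genes in 3 naive (blue, 1 marker shape per replicate) and 4 allograft libraries (red); open markers are libraries with 0 counts, drawn at the limit that 3 counts give. For 8 genes the red points lie above all blue ones; for H2-Oa and Ciita the groups overlap, with naive replicate 2 (triangle) lowest.

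All of the 10 genes but Cd74 and Ciita lie in the class II region of chromosome 17 (mm10, named in the submitters' processing notes; annotation GENCODE M21, the same assembly). From the centromeric side, H2-Oa spans chr17:34092340-34095234, H2-DMa chr17:34119541-34139101, H2-DMb2 chr17:34143307-34151555 and H2-DMb1 chr17:34153072-34160230. H2-Ob follows at chr17:34238903-34254414, H2-Ab1 at chr17:34257689-34269419, H2-Aa at chr17:34282744-34287823 on the minus strand and H2-Eb1 at chr17:34305867-34316674. H2-Oa and H2-Eb1 are the ends of this row. Ciita lies on chromosome 16 (chr16:10480059-10528418).

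CIITA acts at class II promoters on a module in which an X box, bound by the RFX complex, is followed by a Y box, bound by NF-Y. RefSeq promoter windows (GRCm38.p6, 250 bases before to 50 after a start) were found for 7 of the 10 genes, and 5 are shown: 3 that hold letters of both boxes, and H2-Aa and H2-Oa, which hold those of the Y box only, to compare genes that separated the groups with H2-Oa, which did not. Capitals mark the letters AACNNATG, of the X box, where present, and TGATTGG, of the Y box; each is written 5′ to 3′ on the strand of its gene.
H2-Eb1, chr17:34305768-34305822, plus strand: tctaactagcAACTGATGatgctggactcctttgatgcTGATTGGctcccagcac
H2-Ob, chr17:34238810-34238862, plus strand: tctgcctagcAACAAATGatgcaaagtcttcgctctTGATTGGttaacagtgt
H2-DMb2, chr17:34145118-34145173, plus strand: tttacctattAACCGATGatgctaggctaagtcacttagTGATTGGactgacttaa
H2-Aa, chr17:34287857-34287909, minus strand: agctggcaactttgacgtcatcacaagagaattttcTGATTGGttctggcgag
H2-Oa, chr17:34092298-34092350, plus strand: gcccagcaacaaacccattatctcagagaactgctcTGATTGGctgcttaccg

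H2-Eb1, H2-Ob, H2-DMb2 and H2-DMb1 held both sets of letters in this order, 18 to 21 bases apart, and H2-Aa and H2-Oa held the Y letters only. Searched on both strands, AACNNATG was in 8.86% and TGATTGG in 7.82% of the 32851 promoter windows. The first followed by the second at a distance of 8 to 25 bases was in 9 windows (0.0274%), among them those of the 4 genes named and of H2-Eb2. The letters were written with these promoters in view, so that their share is a description. The 2 windows of H2-DMa held neither, which says only that these letters are not in those windows.

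Of the chain genes, H2-Ab1 (ENSMUSG00000073421), the beta chain of the I-A molecule, had 55.0, 432 and 169.8 CPM in naive replicates 1 to 3. It had 1496, 1117, 1196 and 971 CPM in allograft replicates 1 to 4. The lowest allograft thus stood above naive replicate 2, the highest naive library, and naive replicates 1 and 3 lay far lower. The log2 fold change was 2.03 (SE 0.791, edgeR adjusted p = 0.417), and 3.35 (SE 0.549, adjusted p = 0.0433) without naive replicate 2.

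Its partner H2-Aa (ENSMUSG00000036594), the I-A alpha chain, had 23.1, 187 and 71.5 CPM in the naive libraries. The allografts had 558, 473, 626 and 433 CPM, all above the naive values. The fold change on the log2 scale was 2.05 (SE 0.786, edgeR adjusted p = 0.404). It was 3.40 (SE 0.546, adjusted p = 0.0433) without naive replicate 2.

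H2-Eb1 (ENSMUSG00000060586), the beta chain of the I-E molecule, measured 12.8, 104 and 26.7 CPM across the naive libraries and 413, 322, 379.6 and 299.7 CPM across the allografts. Again the groups did not overlap, and naive replicate 2 was the highest naive library. Its log2 fold change was 2.44 (SE 0.841, edgeR adjusted p = 0.341), and 4.11 (SE 0.430, adjusted p = 0.0234) without that library.

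The I-E alpha chain bears on the strain of the cells, since C57BL/6 mice carry a deletion that silences it and BALB/c mice transcribe it. Its row in the tables, H2-Ea-ps, was read 8 times (0.196 CPM), all in the third allograft library, and was at 0 in the other 6. H2-Eb2, a little used second I-E beta gene, had 0 counts in the naive libraries and 3, 51, 45 and 0 in the allografts. BALB/c class II alleles differ in sequence from the C57BL/6 reference, and what this did to the counts was not tested.

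The invariant chain gene Cd74 (ENSMUSG00000024610) had the highest deposited FPKM of the 10 genes in each of the 7 libraries. Per kilobase of principal transcript H2-Ab1 was above it in naive replicates 2 and 3 (357 against 327 and 140.1 against 116 CPM). It had 144, 462 and 164 CPM in the naive libraries. The allografts had 2002, 1576, 1947 and 1612 CPM, on average 6.96 times the naive mean. Allografts and naive libraries were well apart, with naive replicate 2 again the highest of the naive. The log2 fold change was 2.42 (SE 0.652, edgeR adjusted p = 0.233), and 3.49 (SE 0.244, adjusted p = 0.0161) without naive replicate 2, the lowest adjusted p among the 10 genes.

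**Figure D2:**
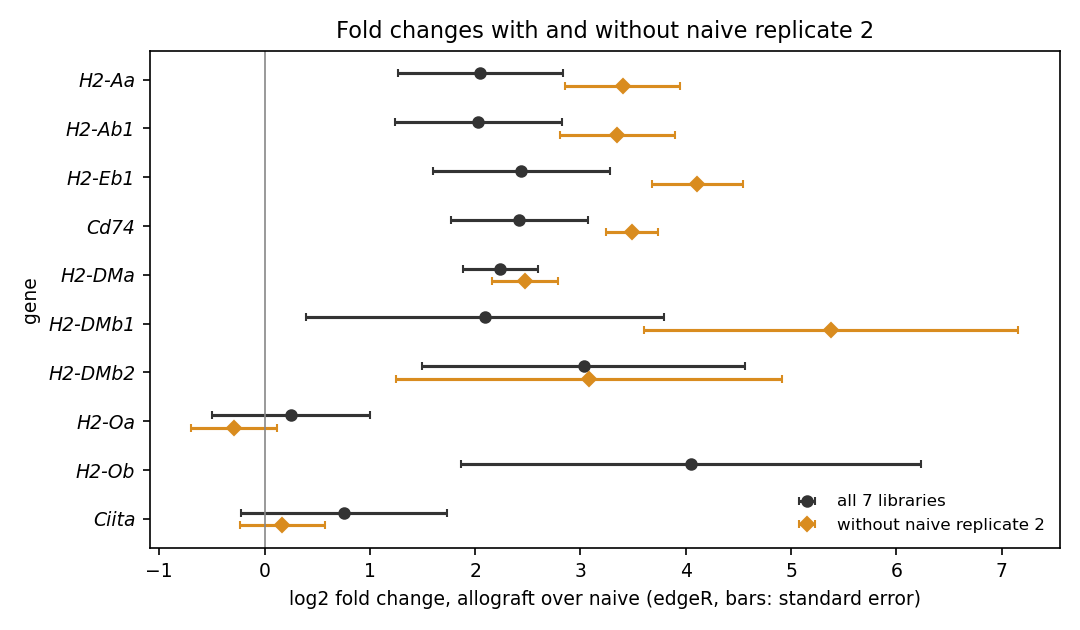
Log2 fold change, allograft over naive, of the 10 genes from edgeR with all 7 libraries (circles) and without naive replicate 2 (diamonds); bars are standard errors. Leaving out that library moves the 3 chain genes and Cd74 to between 3.35 and 4.11, H2-Oa from 0.25 to -0.29 and Ciita from 0.75 to 0.17; H2-Ob has no diamond because its naive libraries then hold 0 counts.

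H2-DMa (ENSMUSG00000037649), the alpha chain of the peptide editor, was the gene of the 10 with the least spread among the naive libraries. It had 17.4, 23.3 and 25.7 CPM there and 123, 112, 149 and 113 CPM in the allografts. Naive replicate 2 lay between the other naive libraries. The log2 fold change was 2.24 (SE 0.353, edgeR adjusted p = 0.144) and 2.47 (SE 0.314, adjusted p = 0.0344) without naive replicate 2. Of its annotated exon bases, 10.4% overlapped Brd2 on the opposite strand, and whether strand was used in counting is not given in the sources used here. Brd2 itself had a mean of 2855 counts in naive and 3129 in allograft libraries.

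The beta chain of H2-DM is encoded by the neighbouring genes H2-DMb1 and H2-DMb2. Over 1211 aligned bases of their longest protein-coding transcripts they were 94.3% identical, with an identical run of 221 bases, so that reads can match both and the values of each alone are uncertain. H2-DMb1 (ENSMUSG00000079547) had 3.53, 33.0 and 0 CPM in naive and 77.0, 58.5, 98.4 and 64.8 CPM in the allografts. For H2-DMb2 (ENSMUSG00000037548) the naive values were 9.22, 3.58 and 0 CPM and the allograft values 49.9, 34.2, 32.5 and 41.2 CPM. Both genes were higher in every allograft than in any naive library, and naive replicate 3 held no read of either, which allows up to 0.0688 CPM.

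Neither beta chain gene passed the test, with edgeR log2 fold changes of 2.09 (SE 1.70, adjusted p = 0.778) and 3.03 (SE 1.535, adjusted p = 0.591). Without naive replicate 2 they were 5.38 (adjusted p = 0.172) and 3.08 (adjusted p = 0.385). Counted as 1 gene, which was added after the values were seen, the pair had 12.7, 36.6 and 0 CPM in the naive and 127, 92.7, 131 and 106 CPM in the allograft libraries. The summed pair gave 2.35 (SE 1.62, edgeR adjusted p = 0.734), and 4.14 (SE 1.87, adjusted p = 0.272) without naive replicate 2. The naive libraries therefore carried the alpha chain of H2-DM at a steady level while the beta chain ranged from 0 to 36.6 CPM.

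The chains of H2-DO, the inhibitor of H2-DM, differed from each other. H2-Ob (ENSMUSG00000041538), the beta chain, had 0, 1.80 and 0 CPM in the naive libraries, the only 82 counts being those of naive replicate 2. The allografts had 14.9, 14.2, 16.0 and 14.2 CPM, the least relative spread of the 10 genes (coefficient of variation 5.80%). Its log2 fold change was 4.05 (SE 2.18, edgeR adjusted p = 0.626). The ratio of the allograft to the naive mean was 24.7 with all 7 libraries. Without naive replicate 2 the naive counts were 0, and the gene entered the fit through the allografts alone (edgeR adjusted p = 0.0234). The allograft mean was then at least 237 times a level of 3 counts per naive library, a limit that covers counting error only.

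H2-Oa (ENSMUSG00000024334), the alpha chain, did not follow. It had 38.7, 4.53 and 101 CPM in naive and 55.9, 63.5, 64.5 and 54.7 CPM in the allografts, so that the allografts lay between naive replicates 1 and 3. The log2 fold change was 0.25 (SE 0.753, edgeR adjusted p = 0.966) and -0.29 (SE 0.406, adjusted p = 0.768) without naive replicate 2. In naive replicates 1 and 3 H2-Oa was thus read 2053 and 4392 times while its partner H2-Ob was not read at all. An annotated gene on the opposite strand, BC051537, overlapped 22.8% of its exon bases but had a mean of 29.3 counts in naive and 47.3 in allograft libraries.

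Ciita (ENSMUSG00000022504), the coactivator of the whole group, was at a similar level in both groups apart from naive replicate 2. It had 15.4, 0.396 and 18.0 CPM in naive and 15.1, 24.7, 17.2 and 20.6 CPM in the allografts. Allograft replicate 1, the lowest allograft, was below naive replicates 1 and 3. The log2 fold change was 0.75 (SE 0.978, edgeR adjusted p = 0.884) and 0.17 (SE 0.407, adjusted p = 0.880) without naive replicate 2. The mean in allografts was 1.163 times that of naive replicates 1 and 3, while the mean of H2-Ab1 was 10.6 times and that of Cd74 11.6 times theirs. Ciita has several promoters, and a count per gene does not tell their transcripts apart.

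Naive replicate 2 ran opposite ways for different genes of the group. It was the highest naive library for 6 genes (the 3 chains, Cd74, H2-DMb1 and H2-Ob) and the lowest for Ciita and H2-Oa. Across the 7 libraries, log2 CPM of H2-Ob followed the mean of the 3 chains and Cd74 with a Pearson r of 0.979, and that of H2-DMa with 0.940. For H2-Oa and Ciita r was -0.00416 and 0.00733. These are descriptions over 7 libraries that share the contrast between the groups.

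Levels between genes were compared per length, in FPKM (fragments per kilobase of gene, scaled to library size). In the allografts Cd74 was highest at 923 ± 113 FPKM (SD, n = 4), followed by H2-Ab1 at 403 ± 73.1, H2-Eb1 at 157 ± 22.8 and H2-Aa at 119 ± 19.8. H2-Eb1 and H2-Aa overlapped in their ranges. H2-DMb1, H2-Oa and H2-DMa lay close together at 38.5 ± 9.13, 36.7 ± 3.22 and 31.2 ± 4.34 FPKM, within their spread on this scale, and H2-DMb2 at 19.5 ± 3.83. H2-Ob and Ciita were lowest at 2.37 ± 0.148 and 1.76 ± 0.383 FPKM.

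In naive replicates 1 and 3 the order in FPKM was another. Cd74 was again highest, at 75.1 and 86.8 FPKM, but H2-Oa came next on average, at 24.1 and 63.4 FPKM, ahead of H2-Ab1 at 18.8 and 58.6 FPKM. Judged by the counts, the deposited FPKM values followed the union of all annotated exons of a gene: for each of the 10 genes the length implied in allograft replicate 1 was 1.159 to 1.166 times that union. The union is longer than the principal transcript, by 3.37 times for H2-Aa and 2.12 times for H2-Ab1 but 1.165 times for H2-Eb1. Per kilobase of principal transcript, added after the values were seen, H2-Aa (463 ± 76.6 CPM, SD, n = 4) therefore stood above H2-Eb1 (212 ± 31.2) in the allografts. H2-DMa (74.9 ± 10.3) then stood above H2-Oa (54.8 ± 4.66) without overlap, with H2-DMb1 at 53.2 ± 12.5. The naive order also turned: H2-Ab1 had 45.4 and 140.1 CPM per kilobase in naive replicates 1 and 3, above H2-Oa with 35.6 and 92.6. The orders of levels between these genes therefore rest on the length used. The length does not touch a comparison of 1 gene between libraries.

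Within a library, 5 FPKM ratios between genes of the group were compared between naive and allograft libraries with a two-sided exact permutation test. The smallest p it can give with 3 against 4 libraries is 0.0286. H2-Eb1 to H2-Ab1 was 0.308, 0.318 and 0.207 in the naive and 0.364, 0.380, 0.419 and 0.407 in the allograft libraries, without overlap (exact p = 0.0286, adjusted 0.0714). H2-Ob to H2-DMa was 0, 0.0489 and 0 in naive and 0.0689 to 0.0809 in allograft libraries (exact p = 0.0286, adjusted 0.0714).

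H2-Aa to H2-Ab1 was nearly constant, at 0.284, 0.293 and 0.285 in the naive libraries and 0.252 to 0.354 in the allografts (exact p = 0.657, adjusted 0.821). The alpha and beta chains of I-A thus kept within this range while each gene's own level varied widely over the libraries. Cd74 to H2-Ab1 was 4.01, 1.64 and 1.48 in naive and 2.05 to 2.54 in allograft libraries (exact p = 0.971, adjusted 0.971). H2-DMa to Cd74 was 0.0586, 0.0244 and 0.0760 in naive and 0.0298 to 0.0370 in allograft libraries (exact p = 0.257, adjusted 0.429). Without naive replicate 2 this last ratio no longer overlapped, being lower in the allografts (exact p = 0.0667, the smallest that 6 libraries can give).

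**Figure D3:**
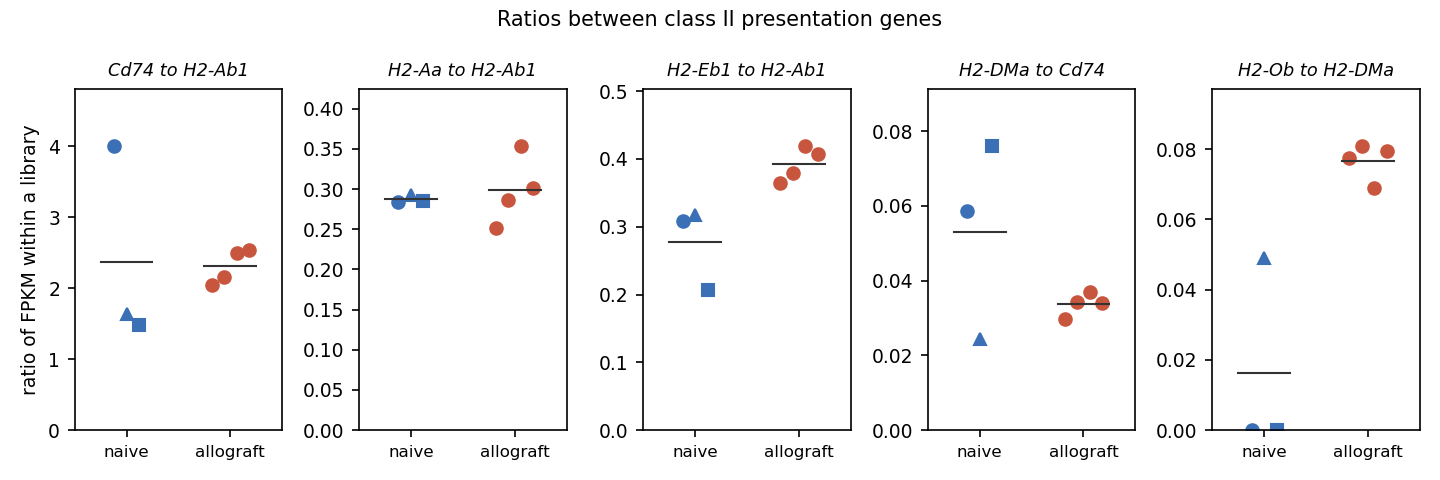
Ratios of FPKM between 2 genes within each library, for 3 naive (blue; triangle, replicate 2) and 4 allograft libraries (red); lines are group means and each axis starts at 0. H2-Eb1 to H2-Ab1 and H2-Ob to H2-DMa do not overlap between the groups, while H2-Aa to H2-Ab1 stays between 0.252 and 0.354 in all 7.

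Of 33 other genes of class II control, processing, turnover, induction and costimulation, 31 could be tested, and none passed with all 7 libraries in edgeR, where 3 had an unadjusted p under 0.05 against 10.3% of all genes. DESeq2 called 4 (Nfya, March1, Cd83 and Irf1), against 5.18% of its genes. The median log2 fold change of the 31 was 0.46. Without naive replicate 2, 3 of 32 were called higher (Cd83, Ifng and Cd40) and 1 lower (Irf1), against 3.10% of all genes in either direction. Ifng and Cd40 had 0 counts in the naive libraries left and could only come out higher. Every allograft lay above every naive library for 6 of the 31, against 12.5% of all genes tested.

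The 7 factors that bind class II promoters (Rfx5, Rfxap, Rfxank, Nfya, Nfyb, Nfyc and Creb1) had a median log2 fold change of 0.14, and none passed with or without naive replicate 2 (edgeR; none at an unadjusted p under 0.05, and Nfya called by DESeq2). The smallest p among them was that of Nfyc, a subunit of NF-Y, with a log2 fold change of -0.84 (edgeR adjusted p = 0.574). Of the 9 endosomal proteases and helpers, which cut the invariant chain and antigens, none passed in edgeR or DESeq2, and 0 had an unadjusted p under 0.05 with all 7 libraries. Their median was -0.27 with all 7 libraries and 0.33 without naive replicate 2, where 8 of the 9 had a positive fold change and none passed in edgeR (1 at an unadjusted p under 0.05). Ctsl, encoding cathepsin L, had the smallest p among these, at 20.1, 254 and 0.229 CPM in naive and 5.60 to 15.6 CPM in allograft libraries (log2 fold change -3.58, edgeR adjusted p = 0.530). Naive replicate 2 alone was high, and without it the value was 0.12 (adjusted p = 0.978). Ctss, encoding cathepsin S, the main protease for the invariant chain in dendritic and B cells, had 148, 53.2 and 68.4 CPM in naive and 126 to 197 CPM in allograft libraries (log2 fold change 0.70, edgeR adjusted p = 0.610).

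Cd83 encodes a surface protein that shields class II from the ubiquitin ligase MARCH1. It had 42.0, 58.5 and 23.2 CPM in naive and 531, 385, 383 and 369 CPM in allograft libraries. The groups were far apart, and naive replicate 2 was not an exception. The log2 fold change was 3.03 (SE 0.514, edgeR adjusted p = 0.144) and 3.64 (adjusted p = 0.0234) without naive replicate 2. March1 itself had 0 counts in the naive libraries and 107, 53, 0 and 54 in the allografts.

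Among the genes that lead to CIITA induction, Ifng, encoding interferon gamma, had 0, 1.85 and 0 CPM in naive and 21.2, 23.5, 14.4 and 17.9 CPM in allograft libraries. The ratio of its means was 31.3 with all 7 libraries (edgeR adjusted p = 0.579). Without naive replicate 2 the naive counts were 0, and the ratio was at least 307 against 3 counts per library (edgeR adjusted p = 0.0234). That limit covers counting error only. Irf1, a factor at the interferon-responsive Ciita promoter, was lower in every allograft than in naive replicates 1 and 3. Its CPM was 149.6, 42.0 and 142 in naive and 58.1, 48.1, 46.6 and 31.0 in allograft libraries, with a log2 fold change of -1.38 (adjusted p = 0.277) and -1.71 (adjusted p = 0.0437) without naive replicate 2 in edgeR.

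Of the 4 costimulatory genes listed, none passed with all 7 libraries in edgeR (0 at an unadjusted p under 0.05) or DESeq2. Cd86 had 0, 4.92 and 1.26 CPM in naive and 19.1, 12.9, 7.56 and 18.8 CPM in allograft libraries without overlap (log2 fold change 2.34, edgeR adjusted p = 0.746, and 4.46, adjusted p = 0.252, without naive replicate 2). Cd40 had 0, 2.66 and 0 CPM in naive and 1.22 to 2.10 CPM in allograft libraries, a ratio of means of 1.87 with all 7 libraries. Without naive replicate 2 the naive counts were 0, and the ratio was at least 26.4 against 3 counts per library (edgeR adjusted p = 0.0450). That limit covers counting error only. Cd80 had at most 9.59 CPM in any library. Icosl, the ligand of ICOS, had 31.9, 2.44 and 61.3 CPM in naive and 38.4 to 63.1 CPM in allograft libraries, with overlap.

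Markers of professional presenting cells were set beside the class II values in each library. The 11 dendritic cell markers summed to 12.7, 34.9 and 34.9 CPM in naive and 180.45, 134, 188 and 145 CPM in allograft libraries, without overlap. Of the 6 defining dendritic cell markers, 5, 2 and 4 were at 0 in naive replicates 1 to 3, and none was at 0 in an allograft. Zbtb46, a transcription factor of conventional dendritic cells, had 0, 5.06 and 0.895 CPM in naive and 27.3 to 44.3 CPM in allograft libraries. Flt3, a growth factor receptor of their lineage, had 0, 1.38 and 0 CPM against 16.3 to 27.2 CPM.

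Itgax, encoding CD11c, had 0 counts in the naive libraries and 6.73 to 10.6 CPM in the allografts. Against 3 counts per library this was at least 133-fold, a limit that covers counting error only (edgeR adjusted p = 0.144, and 0.0344 without naive replicate 2). Clec9a, of cross-presenting dendritic cells, had 0, 0.440 and 0 CPM in naive and 2.53 to 5.27 CPM in allograft libraries. Cd209a had 0, 18.2 and 0 CPM against 3.40 to 10.9 CPM, overlapping through naive replicate 2. The chemokine receptor gene Xcr1 also overlapped, with 12.7, 0 and 30.95 CPM in naive and 13.5 to 25.4 CPM in allograft libraries. Of the 11 dendritic cell markers, 7 had every allograft above every naive library, and 2, Cd209a among them, had a negative log2 fold change. Without naive replicate 2, 8 of the 11 dendritic cell markers were called higher by edgeR, where 3.00% of all genes were. All 8 had 0 counts in the naive libraries left and could only come out higher. With naive replicate 2 none was called (3 at an unadjusted p under 0.05, and 1 called by DESeq2).

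The B cell markers Ms4a1 and Cd79a were also higher in every allograft than in any naive library. Ms4a1, encoding CD20, had 0 counts in naive libraries and 34.1, 13.6, 25.01 and 23.1 CPM in allografts. Against 3 counts per library this was at least 376-fold, a limit that covers counting error only (edgeR adjusted p = 0.111, and 0.0234 without naive replicate 2). Cd79a, a chain of the B cell receptor, had at most 3.45 CPM in naive and 21.1 to 36.4 CPM in allograft libraries. Pax5 was at 0 in every naive library and in allograft replicate 3, and at most 4.19 CPM in the others. The 4 defining B cell markers summed to 0.264, 4.15 and 0 CPM in naive and 52.6 to 96.6 CPM in allograft libraries, without overlap. The 12 B cell markers together overlapped between the groups, because Cd79b had 117 CPM in naive replicate 1. They summed to 117, 31.8 and 35.5 CPM in naive and 106 to 168 CPM in allograft libraries. Of these 12 genes, 6 had every allograft above every naive library, and 4 had a negative log2 fold change: Cr2 (-2.98), Spib (-1.57), Ebf1 (-1.40) and Bank1 (-0.25). With all 7 libraries edgeR called none (5 at an unadjusted p under 0.05, and 4 called by DESeq2). It called 4 higher when naive replicate 2 was left out, against 3.00% of all genes. All 4 had 0 counts in the naive libraries left and could only come out higher.

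The summed macrophage markers did not separate the groups. The 12 genes summed to 2.49, 351 and 480.2 CPM in naive and 174 to 276 CPM in allograft libraries, most of it from Lyz2. The defining genes Csf1r, Adgre1, C1qa and Fcgr1 summed to 0, 49.5 and 10.99 CPM in naive and 4.81 to 8.66 CPM in allograft libraries. Csf1r, the receptor that macrophages depend on, had 0, 26.2 and 10.99 CPM in naive and 0.636 to 2.78 CPM in allograft libraries; Adgre1 and C1qa were at most 6.51 and 13.1 CPM, both in naive replicate 2, and Fcgr1 was at 0 in 5 of the 7 libraries. With all 7 libraries edgeR called none of the 11 tested (1 at an unadjusted p under 0.05, and 1 called by DESeq2), and 8 had a negative fold change. It called 2 higher, C1qa and Cd68, when naive replicate 2 was left out, against 3.00% of all genes. Then 3 were without overlap, and 6 had an unadjusted p under 0.05 on the higher side. These 6, with C1qa and Cd68 among them, had 0 counts in the naive libraries left and could only come out higher. Cd68, a lysosomal protein of macrophages, had 0, 14.9 and 0 CPM in naive and 27.8, 17.4, 11.7 and 17.7 CPM in allograft libraries (edgeR adjusted p = 0.0252 without naive replicate 2).

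Naive replicate 1 carried class II transcripts while most of these markers were at 0. Zeros were common there: naive replicates 1 and 3 had 15820 and 13864 genes with a count, against 20254 in naive replicate 2 and 19235 to 21354 in the allografts, and without naive replicate 2 there were 3307 tested genes at 0 in the naive group. The part of this in the zeros of single markers, and in the folds given as lower limits, was not tested. The 3 chains and Cd74 summed to 234.5 CPM there. Of the 6 defining dendritic cell markers only Xcr1 was read, and all 4 defining macrophage markers were at 0. Of the B cell genes, Ms4a1 and Pax5 were at 0, Cd79a had 0.264 CPM and Cd79b 117 CPM. In naive replicate 3, with the same class II sum at 432 CPM, Zbtb46, Xcr1 and Csf1r were the defining dendritic cell and macrophage markers read, and Ms4a1, Pax5 and Cd79a were at 0. Both libraries were high in the ILC2 markers.

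Per CPM of the dendritic cell list, the chains and Cd74 summed to 18.5, 33.9 and 12.4 CPM in naive and 22.1 to 26.1 CPM in allograft libraries, so that the allografts lay within the naive range, and above it without naive replicate 2. In naive replicate 1 this denominator was Xcr1 alone, and in naive replicate 3 Xcr1 was 30.95 of its 34.9 CPM. Without naive replicate 2 the naive values are thus mainly ratios to Xcr1, which did not separate the groups. Per CPM of the ILC2 list, the same sum was 0.0411, 6.68 and 0.0571 in naive and 0.467 to 0.667 in allograft libraries; without naive replicate 2, where the ILC2 markers were low, the allografts were above both naive libraries. Per CPM of the dendritic cell, B cell and macrophage lists together it was 1.77, 2.83 and 0.785 in naive and 7.15 to 8.17 in allograft libraries, without overlap. Single genes made up most of that denominator in naive replicates 1 and 3: Cd79b with 117 of 133 CPM and Lyz2 with 432 of 551 CPM. Per CPM of the B cell list alone the sum was 2.00, 37.3 and 12.2 against 26.6 to 32.3, overlapping through naive replicate 2. Per CPM of the macrophage list it was 94.2, 3.37 and 0.900 against 16.2 to 21.7, with overlap. Summed dendritic cell markers, and Ms4a1 and Cd79a among B cell markers that did not all go 1 way, were thus higher in the same libraries as class II. Their part in the class II difference was not tested.

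**Figure D4:**
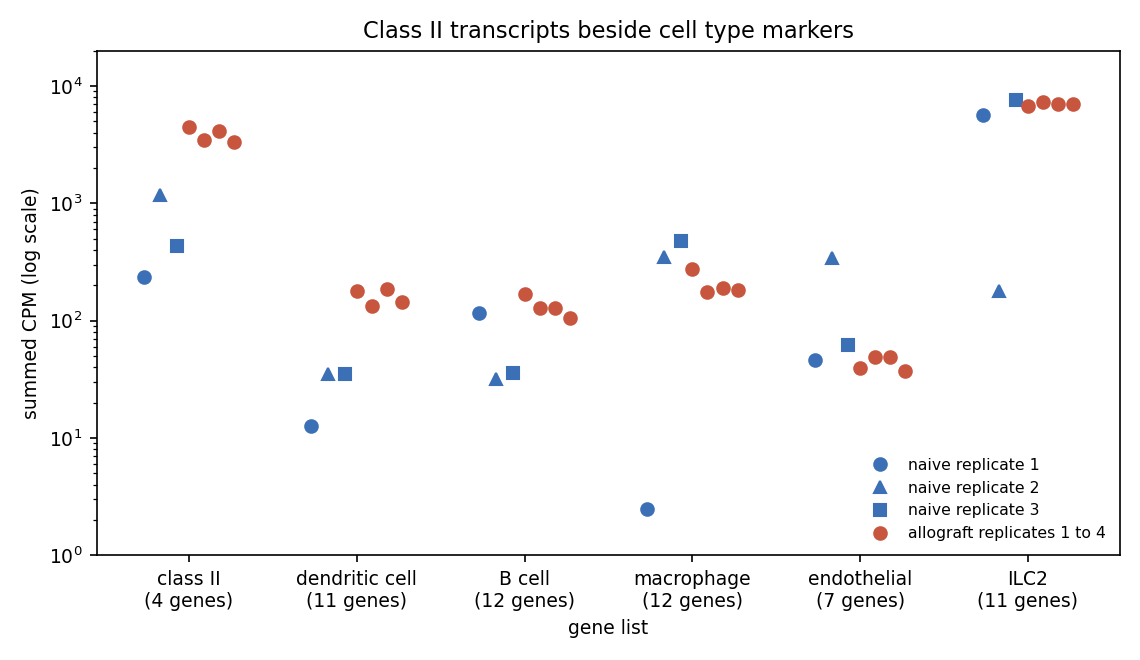
Summed CPM on a log axis of the 3 class II chains with Cd74 and of 5 marker lists in each library (naive blue, replicate 2 as triangle; allograft red). Class II and dendritic cell sums are higher in the allografts without overlap, macrophage and ILC2 sums overlap, and naive replicate 2 is low in ILC2 markers (177 CPM) and high in endothelial ones (343 CPM).

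Markers of other cell types were also listed. Endothelial markers summed to 45.8, 343 and 61.5 CPM in naive and 37.3 to 49.3 CPM in allograft libraries. The 7 markers of group 3 innate lymphoid cells summed to 44.3, 15.0 and 347 CPM in naive and 34.8 to 58.6 CPM in allograft libraries. Neither list separated the groups. Basophil and mast cell markers summed to 330, 12.6 and 236 CPM against 145 to 188 CPM, again with overlap. The 8 T cell markers summed to 89.2, 13.7 and 179 CPM in naive and 200.3 to 248 CPM in allograft libraries, while the defining Cd3d, Cd3e and Trac overlapped at 10.3, 7.69 and 43.8 against 19.1 to 24.6 CPM.

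Of 4910 well-expressed genes, the 5 whose log2 CPM was most like the mean of the 3 chains and Cd74 over the 7 libraries were Igkc (Pearson r 0.992), Icam1 (0.979), Plbd1 (0.976), Snrpd3 (0.975) and Cst3 (0.973). Igkc, the immunoglobulin kappa constant region, had 0, 14.1 and 0.711 CPM in naive and 351 to 485 CPM in allograft libraries. Cst3, encoding the protease inhibitor cystatin C, had 315, 646 and 329.6 CPM in naive and 1050 to 1206 CPM in allograft libraries. Icam1, the adhesion ligand of LFA-1, had 28.8 to 51.3 CPM in naive and 141 to 163 CPM in allograft libraries. All 5 were, like the class II chains, highest in naive replicate 2 among the naive libraries. They were picked for following the chains and Cd74 over these same libraries. This likeness and the distance between the groups therefore come with the choice and are a description.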

How the data were processed

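The authors deposited whole-number counts per Ensembl gene and FPKM for the same genes, per the file headers. The submitters' processing notes name mm10, STAR 2.5.3a, StringTie 1.3.1c, FastQC 0.11.5 and DESeq2 1.16.1, without roles; the annotation and use of strand are not given in the sources used here. Full-length cDNA was amplified before library construction, per the labels' protocols, and intervals or limits from counts cover counting error only. Groups came from the sample titles, no 2 libraries held identical counts, and no column was left unmatched. March1 and March8 had been turned into dates in the tables and were matched by identifier.

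The test was edgeR 4.0.16 (R 4.3.3), a quasi-likelihood fit on the counts as deposited, with TMM, the filterByExpr filter and Benjamini-Hochberg adjustment over all genes tested, with all 7 libraries and without naive replicate 2. The SE is that implied by the F value. The series' design text calls the libraries biological replicates, each a pool of hearts. CPM is per deposited total count. FPKM was proportional to CPM within each gene up to a factor that differed between libraries and was shared by the genes of a library. The alternatives were DESeq2 1.42.0, DESeq2 size factors, 2 filters, limma 3.58.1 on log2(FPKM + 1) and log2(FPKM + 0.1), a replicate block, equal depth and leaving out each library. The 7-library edgeR fit was tested on simulated counts with known fold changes. Every simulated gene had the same spread, taken from the value fitted in common to these libraries. The fit estimated the size of the changes closely, but at that spread it called almost none of them. A missed threshold with all 7 libraries therefore says little about a gene with such a spread. Differences in spread between genes were not simulated. Named were the 10 genes, the passing gene or the one with the smallest p of each other list, defining markers, and the 5 genes most alike; other named genes were chosen after their values were seen. The members and lists were chosen with earlier results of these data known. Single values of a few listed genes are not reported here.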

Additional observations from a re-analysis of the deposited data

How the results depend on the processing

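Over the 15 alternatives, 9 of the 10 genes kept a positive log2 fold change in each; H2-Oa turned negative in 1, without naive replicate 2, and ran from -0.29 to 1.40 over the fits that leave out 1 library each. The number of the 10 genes past the threshold was 0 in edgeR, 1 with DESeq2 (H2-DMa), 1 with limma on log2(FPKM + 1) (H2-DMa) and 3 on log2(FPKM + 0.1) (Cd74, H2-DMa and H2-Ob). Leaving out 1 library at a time gave 0 to 6, the 6 being without naive replicate 2, and 0 without any other library; the cause was not tested. For the other pathway genes the number was 4 with DESeq2 (Nfya, March1, Cd83 and Irf1), 2 with either form of limma (Cd83 and Ifng) and 0 to 4 over the fits without 1 library. Over all genes it was 6, and 1244 with DESeq2, 76 and 201 with limma at the larger and smaller pseudocount, and 0 to 560 without 1 library (0 without any one allograft, 107 without naive replicate 1). With DESeq2 size factors the median log2 fold change of all genes was -0.20 in place of -0.01, and the 10 genes kept their signs.

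With a replicate block, the number was 0 for the 10 genes, 0 for the pathway genes and 0 over all genes (252 at an unadjusted p under 0.05). The libraries share only a number: deviations of same-numbered libraries correlated at 0.0169, -0.0196 and 0.0360. Over the fits without 1 library, the difference between groups in the ratio of Cd74 to H2-Ab1 (-0.0618) ran from -0.508 to 0.754 and that of H2-Aa to H2-Ab1 (0.0110) from -0.00749 to 0.0264, so neither has a settled sign; the other 3 ratios kept theirs. The number of genes without overlap between the groups was 8 in CPM, in CPM scaled by TMM and in FPKM, and 8 to 9 without 1 library. Values under about 0.1 CPM are below what these depths can show.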
